A study of Mus musculus with 40 samples.

Results

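Kinesin genes were followed through in vitro maturation and fertilization of the mouse egg, in total RNA and in RNA recovered with polysomes. Kinesin genes were taken as every row whose symbol begins with Kif and a number or Kifc and a number, plus Kifap3, which encodes the non-motor subunit of heterotrimeric kinesin-2. This gave 34 of the 11323 genes in the deposited tables. By known role, 14 of 15 spindle and cytokinesis kinesins were listed, 15 of 18 cargo kinesins and 5 of 10 cilium or other kinesins. The other 9 symbols, not analysed here, were Kif1a, Kif5a, Kif7, Kif6, Kif12, Kif2b, Kif19a, Kif25 and Kifc2.

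The series holds 40 libraries, 4 for each of 5 cell groups in each RNA fraction. The groups were mouse oocytes matured in vivo (IVO), oocytes matured in culture as whole cumulus-oocyte complexes (COC), oocytes matured in vitro after removal of the cumulus cells (IVM), pronuclear zygotes from in vivo maturation and fertilization (IVZ), and pronuclear zygotes from in vitro maturation and fertilization (IMZ). No group carries a mutation or drug in the labels, and strain, age and the number of cells per library are not stated. Whether the oocytes behind IMZ had matured with or without cumulus is not stated either, so IMZ was compared with both COC and IVM. Nothing in the labels states that replicates came from separate animals or collections. The p-values therefore measure the spread between these libraries, which may be technical.

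Kinesins are motor proteins that use ATP to walk along microtubules or to shorten them. In the egg they build and focus the meiotic spindle, move chromosomes, and organise the midzone microtubules that guide polar body extrusion. Other family members carry mitochondria, vesicles and ciliary components. The mature oocyte and early zygote make little new RNA, so the protein made at these stages depends on which stored messages are loaded with ribosomes.

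Values are RPKM, the authors' read counts scaled to gene length and library size, so levels of different genes can be set side by side. Recovered depth was 46.6 to 63.2 M reads in total RNA and 3.14 to 38.9 M reads in polysomal RNA. All 12 oocyte markers were listed in total RNA of every group. Of 18 cumulus cell markers 2 to 4 were listed in total RNA, at 12.3 to 16.4 RPKM summed, and Nr5a2 alone in polysomal RNA. Of 7 sperm markers Prm2 alone was listed. Total RNA libraries IVO 1, IVO 3 and IVM 2 stood at one end of an axis that held 46.7% of the variance within groups, and the median of mitochondrial mRNAs was higher in these than in the other libraries of their own group. Values without them are given below where a call, a sign or a count of calls moved.

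The tables list only genes at 0.2 RPKM or more in every library compared, and this separated the fractions. In total RNA 32 kinesin genes were in all 4 tables. In polysomal RNA 27 were in at least 1 table and 18 in all 4. Kif15, Kif26a, Kif26b, Kif27, Kifap3, Kif3c and Kif21a were in no polysomal table. They were also the lowest in total RNA of in vivo matured oocytes, from 1.16 RPKM for Kif27 to 0.245 RPKM for Kif21a. Kif3c, at 0.267 RPKM, was in 1 total RNA table, Kif21a was in the oocyte tables alone, and Kif9 was in a polysomal table in zygotes alone. Counts over polysomal values below therefore cover the better expressed kinesins.

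Spindle and cytokinesis kinesins filled most of the top of the family in total RNA. Kif23 (ENSMUSG00000032254) encodes the motor of centralspindlin, the complex that bundles midzone microtubules before cytokinesis. Its total RNA level in IVO was 279, 213, 277 and 223 RPKM, a mean of 248 ± 34.6 (SD, n = 4), and it made up 25.6% of the summed RPKM of all kinesin genes there. All 4 IVO libraries were above every library of every other kinesin. Its share was between 23.9% in IMZ and 28.0% in IVZ in the other groups.

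Behind it in IVO came Kif22 at 89.8 ± 15.4 RPKM, a chromokinesin that pushes chromosome arms from the poles, and Kif17 at 73.0 ± 2.34, a kinesin-2 known for carrying receptors in neuronal dendrites. Next were Kif2c at 69.4 ± 2.74, which shortens microtubules at kinetochores, and Kif4 at 63.9 ± 4.51, a chromokinesin that also works at the midzone. Kifc1 followed at 62.2 ± 4.67, a minus-end motor that focuses spindle poles, with Kif14 at 57.6 ± 1.98 and Kif20a at 41.9 ± 1.92, both cytokinesis motors. In this order Kif23 was apart from Kif22, Kif22 from Kif17 and Kif14 from Kif20a, while neighbours from Kif17 to Kif14 overlapped between libraries. Kif20b, a motor of the late midbody, was at 37.9 ± 4.42 RPKM, and Kif11, which slides spindle microtubules apart, at 19.8 ± 0.757. Kif18a, which damps chromosome movements at the metaphase plate, was at 15.1 ± 0.724.

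Among cargo kinesins other than Kif17, Kif3a was the highest in IVO total RNA at 36.9 ± 5.92 RPKM. It is a motor subunit of heterotrimeric kinesin-2, whose partner subunits were far lower: Kif3b at 5.64 ± 0.518, Kif3c at 0.267 and Kifap3 at 0.520. Kif5b, the broadly expressed kinesin-1 heavy chain, was at 12.1 ± 2.99 RPKM. The gap between Kif3a and Kif3b held in each of the 20 total RNA libraries, where Kif3a ran from 27.1 to 42.3 RPKM and Kif3b from 4.99 to 8.40.

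**Figure D1:**
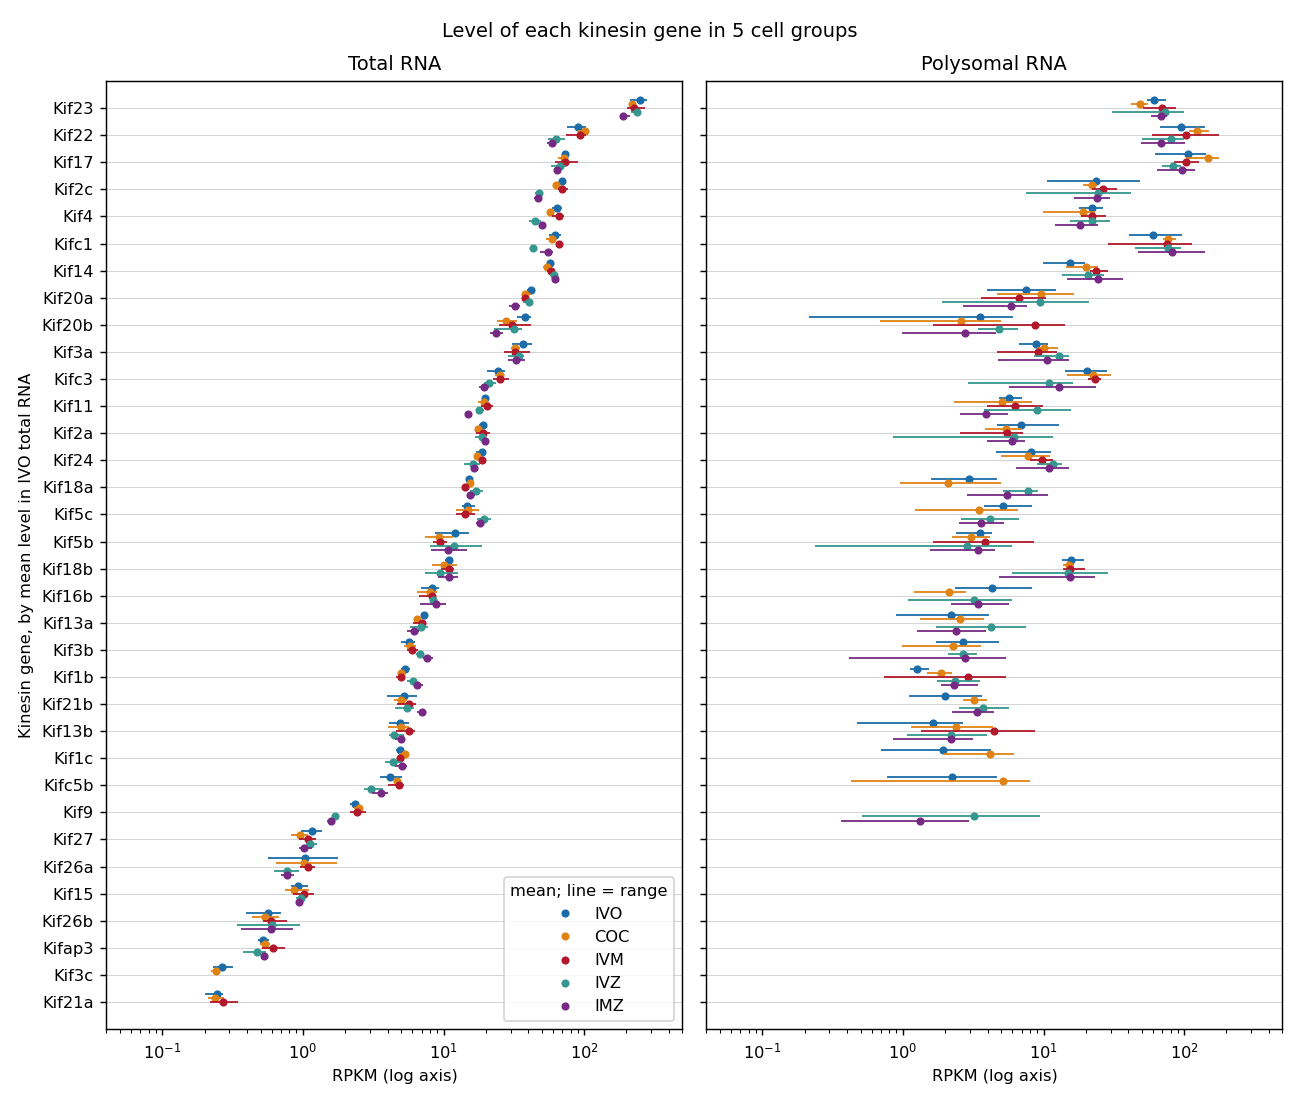
RPKM (log axis) of each kinesin gene, ordered by its mean in IVO total RNA, in total RNA on the left and polysomal RNA on the right. Points are means of 4 libraries and lines run from the lowest to the highest library. Kif23 leads in total RNA at 248 RPKM in IVO, while Kif17 and Kif22 lead in polysomal RNA, and the lines are longer in polysomal RNA.

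The order was different on polysomes. Kif17 was the highest kinesin in polysomal RNA of IVO, COC, IVZ and IMZ, with means of 106, 147, 83 and 96.7 RPKM. Kif22 was the highest in IVM by a small margin, at 104 RPKM beside 104 for Kif17. That order was read with polysomal IVM 1, which the authors excluded. Without it, the difference of IVM from IVO on the log2(RPKM + 1) scale was -0.24 for Kif22 and 0.10 for Kif17. The IVO means were 95.5 RPKM for Kif22 and 106 for Kif17, so Kif17 was then above Kif22 in IVM too. The mean of Kif23 was below both in every group, by a small margin in IMZ (68.1 against 68.2 RPKM for Kif22, with overlapping libraries), with means of 61.0, 48.6, 69.7, 72.8 and 68.1 RPKM in IVO, COC, IVM, IVZ and IMZ. Libraries of a group were also further apart there: the median coefficient of variation over kinesins was 7.06 to 11.3% in total RNA and 30.9 to 43.1% in polysomal RNA.

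Polysomal and total RNA were compared within each cell group, which asks which stored messages were over- or under-represented among those carrying ribosomes. Each fraction is scaled to its own total, so a lower value means a smaller share of the polysomal RNA and not a number of molecules. Most kinesins were lower on polysomes, led by the cytokinesis motors Kif20b, Kif20a and Kif23 and by Kif18a and Kif5c. Kif17, Kif18b and Kif22 lay above 0 in every group with all libraries kept.

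In IVO, 20 of 26 kinesin genes were called lower and 0 higher by limma with Benjamini-Hochberg adjustment over all genes. Of all genes tested there 59.1% were called, 45.2% lower and 13.9% higher. COC had 19 lower and 3 higher of 26, against 44.3% and 23.4% of all genes (67.8% in either direction). IVM had 11 lower and 0 higher of 18, against 38.9% and 14.9% (53.9% in all). IVZ had 16 lower and 1 higher of 25, against 30.1% and 10.9% (41% in all), and IMZ had 18 lower and 1 higher of 25, against 46% and 15.1% (61.1% in all).

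The median difference over kinesins, as polysomal minus total on the log2(RPKM + 1) scale, was -1.44 in IVO, -1.24 in COC, -1.28 in IVM, -1.09 in IVZ and -1.19 in IMZ. Over all genes tested it was -0.55, -0.40, -0.50, -0.38 and -0.51. Kinesins below the median of all genes numbered 21 of 26, 19 of 26, 12 of 18, 20 of 25 and 20 of 25 in that order.

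Of 18 kinesins tested in all 5 groups, 10 were called lower in all 5: Kif11, Kif14, Kif20a, Kif20b, Kif23, Kif2a, Kif2c, Kif3a, Kif4 and Kif5b. Of all genes, 30.1 to 46% were called lower in a single group. The share lower in all 5 together is not given here, so the count of 10 is a description only. With each library left out in turn, some of these 10 kinesins lost a call: Kif11 and Kif2c each in 6 of 8 fits in IVZ, and Kif5b in 3 of 8 in IVM. Kif16b, an early endosome motor, lost its call in 6 of 8 fits in IVO and 4 of 8 in IVZ. Kif13b lost it in 6 of 8 in IVZ, and Kif21b in 4 of 8 in COC.

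Kif20b (ENSMUSG00000024795) had the lowest value in 4 of the 5 groups. In IVO its total RNA level was 42.2, 33.3, 41.1 and 34.9 RPKM, and its polysomal level 0.213, 3.99, 6.06 and 3.82 RPKM. In COC the same figures were 26.6, 27.9, 33.5 and 24 against 2.38, 0.686, 4.97 and 2.32. In IVM they were 29.4, 42.2, 24.7 and 27.4 against 14.3, 1.63, 6.48 and 12.2. Every polysomal library was below every total RNA library of its group, and polysomal IVO 1, the lowest, rested on 11.9 reads by the recovered depth. In zygotes the polysomal libraries, at 5.60, 6.62, 3.70 and 3.41 RPKM in IVZ and 4.45, 0.984, 1.01 and 4.57 in IMZ, were again all below the total RNA libraries, at 22.9 RPKM or more in IVZ and 21.4 or more in IMZ. The differences were -3.35 ± 0.45 (SE; adjusted p = 0.000133, limma) in IVO, -3.14 ± 0.33 (2.05e-05) in COC, -1.98 ± 0.51 (0.0104) in IVM, -2.51 ± 0.27 (0.000433) in IVZ and -2.88 ± 0.35 (5.96e-05) in IMZ.

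Kif20a (ENSMUSG00000003779) carries the chromosomal passenger complex, which holds Aurora B, to the midzone. Its IVO total RNA level was 43.1, 39.2, 41.9 and 43.5 RPKM and its polysomal level 7.06, 3.99, 6.48 and 12.3 RPKM, with no overlap. The difference was -2.43 ± 0.28 (adjusted p = 6.12e-05, limma) in IVO, -2.02 ± 0.31 (0.000205) in COC, -2.43 ± 0.30 (0.000598) in IVM, -2.34 ± 0.49 (0.00503) in IVZ and -2.34 ± 0.27 (4.04e-05) in IMZ.

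For Kif23 the polysomal level was 59.6, 73.7, 56.3 and 54.2 RPKM in IVO, where the lowest total RNA library was at 213. In COC it was 55.3, 41.7, 52.9 and 44.8 RPKM, under total RNA levels of 215, 216, 235 and 214. The fractions did not overlap in either group, and the differences were -2.01 ± 0.20 (adjusted p = 4.13e-05, limma) in IVO and -2.16 ± 0.13 (3.68e-06) in COC. In IVM, IVZ and IMZ they were -1.72 ± 0.22, -1.83 ± 0.33 and -1.48 ± 0.15, all called.

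Further spindle motors ran lower as well. Kif18a fell by 2.11 ± 0.29 in IVO, 2.57 ± 0.33 in COC, 1.05 ± 0.24 in IVZ and 1.5 ± 0.31 in IMZ on the log2 scale, and was not tested in IVM. Kif14 differed by -1.88 ± 0.22 in IVO and by -1.26 to -1.56 elsewhere. Kif11 ran from -1.86 ± 0.29 in COC to -1.06 ± 0.35 in IVZ, Kif2c from -1.75 ± 0.36 in IVO to -0.96 ± 0.19 in IMZ, and Kif4 from -1.60 ± 0.24 in COC to -1.01 ± 0.23 in IVZ. Kif2a, a microtubule depolymeriser of the spindle poles, lay between -1.46 ± 0.29 and -1.77 ± 0.50.

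Cargo kinesins were mostly lower too. Kif5c, a kinesin-1 heavy chain, fell by 1.42 ± 0.26 in IVO, 1.95 ± 0.33 in COC, 2.03 ± 0.27 in IVZ and 2.09 ± 0.22 in IMZ on the log2 scale. Kif3a lay between -1.94 ± 0.22 in IVO and -1.37 ± 0.23 in IVZ, Kif5b between -1.91 ± 0.49 and -1.30 ± 0.39, and Kif16b reached -1.56 ± 0.22 in COC. Kif1b, a carrier of mitochondria and vesicles, was at -1.49 ± 0.19 in IVO and Kif3b at -1.10 ± 0.22 in IVZ.

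**Figure D2:**
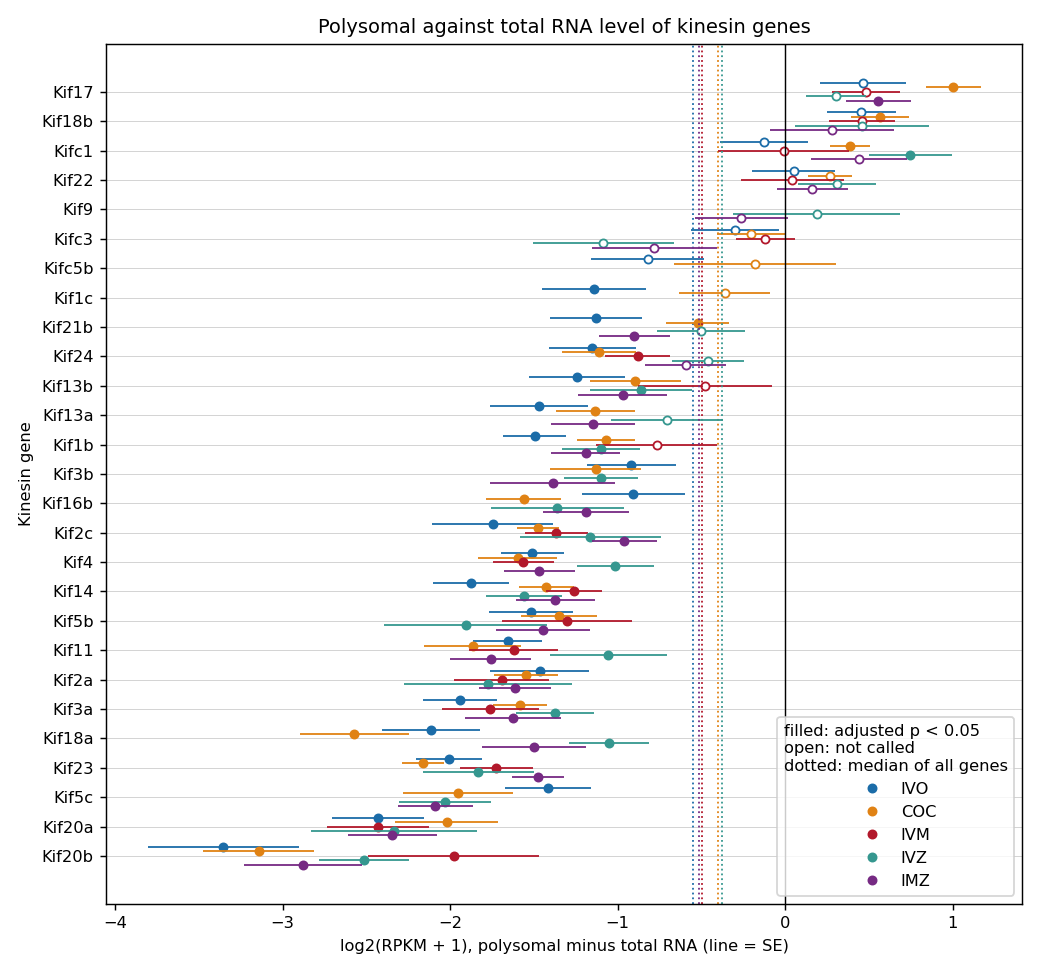
Difference between polysomal and total RNA on the log2(RPKM + 1) scale for each kinesin tested, by cell group. Points are estimates, lines are 1 SE, filled points have an adjusted p under 0.05 and dotted lines are the medians of all genes. Kif20b, from -1.98 to -3.35, Kif20a and Kif5c lie at the low end, and Kif17, Kif18b and Kif22 lie above 0 in every group with all libraries kept.

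Kif17 (ENSMUSG00000028758) was at the other end. In COC its polysomal level was 103, 155, 155 and 176 RPKM and its total RNA level 74.1, 74.5, 72.8 and 65.3 RPKM, with no overlap, a difference of 1 ± 0.16 (adjusted p = 0.000328, limma). In IMZ it was 100.4, 119, 64.0 and 104 RPKM on polysomes and 68.8, 63.4, 62.0 and 61.3 RPKM in total RNA. There polysomal library IMZ 3 lay inside the range of total RNA, and the difference of 0.56 ± 0.20 (adjusted p = 0.0269) lost its call in 5 of 8 fits with a library left out. In IVO, IVM and IVZ the differences of 0.47 ± 0.26, 0.48 ± 0.20 and 0.30 ± 0.18 did not pass.

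Kif18b, which trims astral microtubules, was at 13.7, 15.6, 16.4 and 15.2 RPKM on polysomes of COC and at 9.38, 12.4, 8.30 and 10.1 RPKM in total RNA, with no overlap and a difference of 0.56 ± 0.17 (adjusted p = 0.014, limma). In the other groups its differences of 0.45 ± 0.21, 0.46 ± 0.20, 0.46 ± 0.40 and 0.28 ± 0.37 in IVO, IVM, IVZ and IMZ were not called. Kif22 differed by 0.05 ± 0.25, 0.27 ± 0.13, 0.04 ± 0.31, 0.31 ± 0.23 and 0.16 ± 0.21 in IVO, COC, IVM, IVZ and IMZ and was called in none. Without polysomal IVM 1 the Kif22 value in IVM turned to -0.25 ± 0.20 (adjusted p = 0.288), and without polysomal IVZ 1 that of Kif18b in IVZ was 0.10 ± 0.29. Without IVM 1, Kif17 at 0.57 ± 0.20 (0.0279) and Kif18b at 0.49 ± 0.17 (0.0282) were called in IVM.

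Kifc1 (ENSMUSG00000079553) was called higher on polysomes in COC and IVZ alone by the main fit, which does not show that the groups differ. In IVZ it was at 94.8, 44.5, 73.2 and 93.5 RPKM on polysomes and at 41.7, 42.8, 44.1 and 44.8 RPKM in total RNA. Polysomal library IVZ 2 was within the total RNA range, the other 3 were above it, and the difference was 0.75 ± 0.25 (adjusted p = 0.0342, limma), lost in 7 of 8 fits with a library left out. In COC it was 0.39 ± 0.12 (0.0146), lost without total RNA replicate 2 (adjusted p = 0.0587). In IVO, IVM and IMZ the differences of -0.13 ± 0.26, -0.01 ± 0.39 and 0.44 ± 0.28 were not called. Without the polysomal libraries that the authors excluded it was 0.63 ± 0.23 (0.0501) in IVZ and 0.39 ± 0.24 (0.168) in IVM. Kifc1 and Kifc5b transcripts were 97.9% identical over 2326 aligned bases, so reads may be shared between them and both levels are uncertain.

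The scaling sets how many kinesins count as higher or lower. With libraries rescaled to the median ratio over genes, the median of all genes moved from -0.55 to -0.01 in IVO, and the share of higher calls among all called genes went from 23.5 to 52.0% in IVO, 34.6 to 51.4% in COC, 27.7 to 55.0% in IVM, 26.6 to 51.6% in IVZ and 24.7 to 52.0% in IMZ. Kinesins then numbered 3 higher and 15 lower in IVO, 4 and 17 in COC, 2 and 9 in IVM, 3 and 10 in IVZ, and 3 and 16 in IMZ. The share of all genes called under this scaling is not given here, so these counts have no background beside them. Kif17 was then called higher in all 5 groups, Kif22 in all but IVM, Kif18b in IVO, COC and IVM, and Kifc1 in COC, IVZ and IMZ. Kif20b, Kif20a and Kif23 kept a negative sign in all 5 groups under this scaling.

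Exonic length moved with this comparison. It is the union of all annotated exons of a gene, which can be longer than any 1 of its transcripts. The kinesins tested in IVO had a median exonic length of 7050 bases against 4676 for all genes, and the median difference of all genes went from 0.31 in the shortest of 4 length classes to -0.41, -0.72 and -1.01 in the longer ones. With the trend on length taken out of every library, kinesin medians were -0.95, -0.86, -0.81, -0.85 and -0.88 in IVO, COC, IVM, IVZ and IMZ, against -0.45, -0.28, -0.35, -0.31 and -0.40 for all genes. The counts were then 16 lower and 0 higher in IVO, 16 and 3 in COC, 9 and 1 in IVM, 10 and 0 in IVZ, and 16 and 1 in IMZ, where 48.8%, 57%, 40%, 28.9% and 50.5% of all genes were called. Kif20b was at -2.99 ± 0.44 (adjusted p = 0.000413, limma) in IVO. The part of length in what remained was not tested. Without total RNA libraries IVO 1 and IVO 3 the IVO count was 16 lower of 26, where 38.1% of all genes were called, and without IVM 2 the IVM count was 10 lower of 18, where 44.4% were. Without polysomal IVM 1 and IVZ 1, which the authors excluded, kinesins numbered 13 lower and 2 higher of 18 in IVM, where 71.6% of all genes were called, and 17 lower and 0 higher of 25 in IVZ, where 50.7% were.

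**Figure D3:**
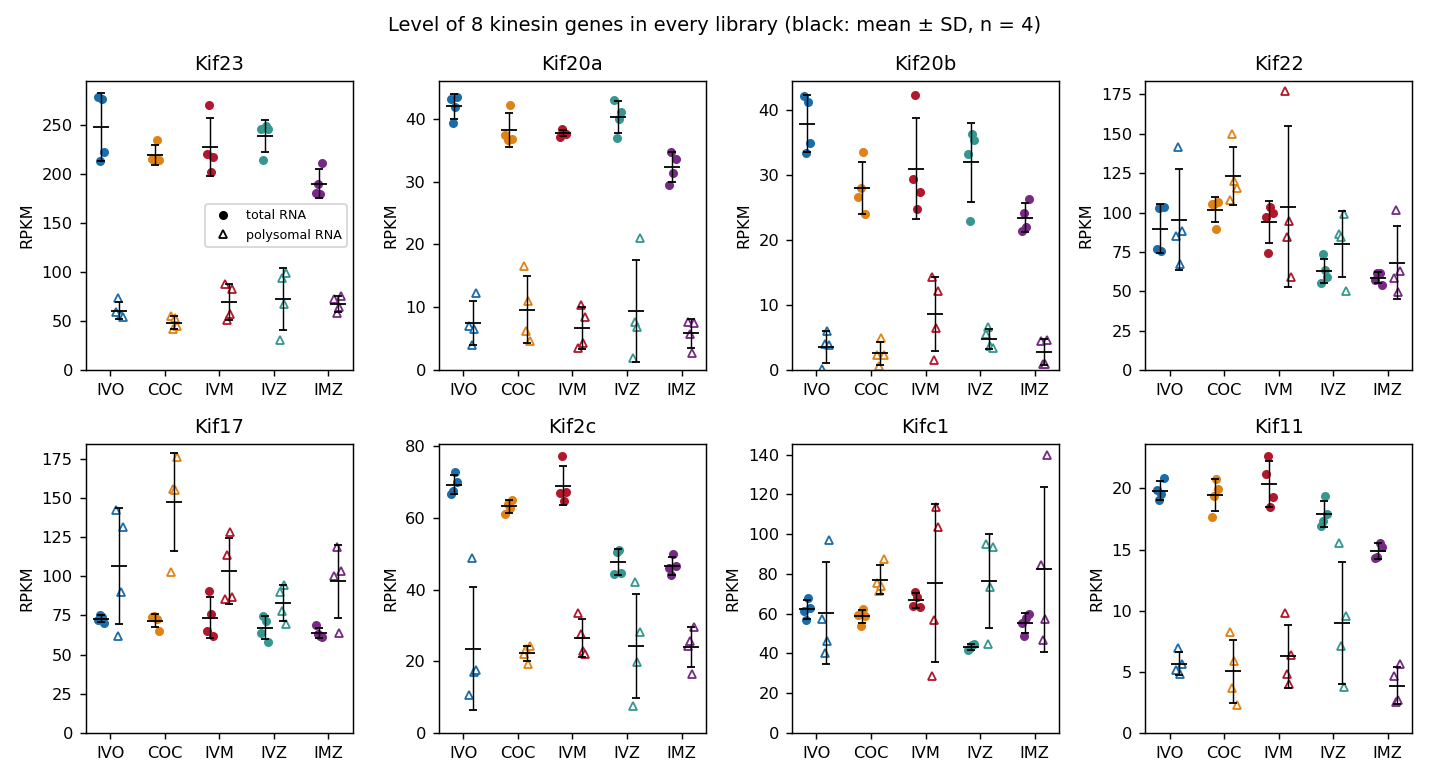
RPKM of Kif23, Kif20a, Kif20b, Kif22, Kif17, Kif2c, Kifc1 and Kif11 in every library, by cell group, with total RNA as filled circles and polysomal RNA as open triangles. Black marks are means with SD over 4 libraries. Kif23, Kif20a, Kif20b and Kif11 sit lower in polysomal RNA, most Kif17 triangles sit higher, and Kif2c, Kif22 and Kifc1 circles drop from IVO to IVZ.

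Stored oocyte messages often carry a cytoplasmic polyadenylation element near the 3′ end, which helps to repress them and later to lengthen their poly(A) tail at maturation. The letters TTTTAT or TTTTAAT were looked for on the transcript strand in the last 150 bases of each 3′ UTR (GENCODE M21, build GRCm38). Matches are shown for Kif20b and Kif18a, the kinesins with the lowest polysomal minus total differences in COC, and for Kifc1 and its near copy Kifc5b. Capitals mark the match. The Kif20b site is at chr19:34975702-34975722 (+ strand), 28 bases from the end, the Kif18a site at chr2:109341705-109341732 (+), 37 bases from it, the Kifc1 site at chr17:33875715-33875738 (- strand), 71 bases from it, and the Kifc5b site at chr17:26932506-26932529 (+), 69 bases from it.
Kif20b: atataaTTTTAATtcaataaa
Kif18a: ctaataTTTTATtacttggtatattaaa
Kifc1: gagacatgaTTTTATtgggtgaac
Kifc5b: tctaaacggTTTTATtaacttaac

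The Kif20b and Kif18a windows run on to aataaa and attaaa, the usual and a common variant letters of the cleavage signal. Of the kinesins tested in IVO with a UTR, 9 of 25 (36.0%) held a match, as did 25.3% of 7460 genes. The median polysomal minus total difference for kinesins with and without a match was -1.66 and -1.28 in IVO, -1.43 and -1.13 in COC, -1.30 and -1.22 in IVM, -1.06 and -1.10 in IVZ, and -1.37 and -1.19 in IMZ, so the order turned in IVZ. For all genes it was -0.89 and -0.43 in IVO, with the lower value on the side with a match in every group. Kif23 and Kif20a, also far lower on polysomes, held no match in this window, and neither did Kif17 or Kif18b, whereas Kif22, near 0 in this comparison, held 1. The annotated 3′ UTRs of Kif17 and Kif22 have 65 and 62 bases, so less than the full window was searched in them. A match is a description of the letters, and binding at these places was not measured.

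Partners of kinesins were read from the same fits. Of 16 spindle and midzone partners, 12 were lower on polysomes and 0 higher in IVO, with a median of -1.54. Of all genes 45.2% were lower and 13.9% higher there, with a median of -0.55. The midzone bundler Prc1, which recruits Kif4, was at 27.7 ± 9.47 RPKM on polysomes and 165 ± 10.3 in total RNA, a difference of -2.60 ± 0.25. Cenpe, a kinetochore motor of the kinesin superfamily without a Kif symbol, was at 9.64 ± 2.93 and 90.8 ± 10.8 RPKM, a difference of -3.14 ± 0.23, and the spindle assembly factors Tpx2 and Ckap5 differed by -2.17 ± 0.20 and -2.59 ± 0.24. In COC, IVM, IVZ and IMZ the partners numbered 11 lower and 2 higher of 15, 11 and 0 of 15, 9 and 1 of 14, and 10 and 0 of 14. In these groups 44.3%, 38.9%, 30.1% and 46% of all genes were lower and 23.4%, 14.9%, 10.9% and 15.1% higher.

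Among dynein and dynactin genes, the minus-end transport machinery, 7 were lower and 4 higher of 17 in IVO, with a median of -0.40. That is close to all genes, of which 45.2% were lower and 13.9% higher, with a median of -0.55. Dynll1, a light chain, rose to 161 ± 35.6 RPKM on polysomes from 42.6 ± 4.67 in total RNA, and the adaptor Bicd2 was at 6.67 ± 1.20 and 16.9 ± 1.72 RPKM. In COC, IVM, IVZ and IMZ these genes numbered 7 lower and 5 higher of 17, 4 and 3 of 12, 3 and 4 of 17, and 6 and 3 of 17. Kinesin light chains and cargo adaptors had 6 lower and 1 higher of 10 in IVO, with Rhot1, which ties mitochondria to kinesin-1, at -1.98 ± 0.22. In the other groups they numbered 3 and 1 of 10, 1 and 1 of 6, 1 and 0 of 9, and 5 and 1 of 9. The shares of all genes given above apply to these lists as well.

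Zygotes were compared with oocytes in total RNA, where little new RNA is made. This asked which kinesin messages held their share of the RNA through fertilization. Each library is scaled to its own total. A fall or rise below is therefore a change of share and not of the number of molecules. The microtubule depolymeriser Kif2c, the chromokinesins Kif22 and Kif4, Kifc1 and the sperm-flagellum kinesin Kif9 were lower in zygotes in the in vivo comparison, and few kinesins were higher. These oocyte and zygote libraries share no table, so their levels rest on the authors' RPKM scaling being comparable between tables. Genes in all 4 total RNA tables were fitted in 1 model of 20 libraries, which share an estimate of the spread. The comparisons of IMZ with COC and with IVM share the IMZ libraries.

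From IVO to IVZ, 7 of 32 kinesins were called lower and 2 higher, against 18.3% and 5.4% of all genes (23.7% in all). From COC to IMZ, 7 were lower and 4 higher, against 24.4% and 9.42% (33.8% in all). From IVM to IMZ, 10 were lower and 3 higher, against 27.5% and 9.27% (36.7% in all). These shares are close to those of all genes. Among spindle and cytokinesis kinesins 5, 5 and 7 were lower and 0, 1 and 0 higher, and among cargo kinesins 0, 1 and 1 were lower and 2, 3 and 3 higher. The roles were not tested against each other, so these counts are a description only. Kifc1 and Kifc5b, which may share reads, are both among the spindle falls from IVO and from IVM. Several calls in both roles moved with the settings, as given below.

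Kif2c (ENSMUSG00000028678) was at 66.8, 67.6, 72.9 and 70.2 RPKM in IVO and at 44.4, 50.5, 51.1 and 44.8 in IVZ. In COC it was at 61.0, 64.0, 62.7 and 65.2, in IVM at 66.9, 77.2, 64.9 and 67.2, and in IMZ at 46.0, 44.1, 49.9 and 46.5 RPKM. Every zygote library was below every oocyte library. It fell by 0.53 ± 0.06 (SE, log2 scale; adjusted p = 2.79e-06, limma) from IVO to IVZ, by 0.43 ± 0.06 (2.52e-05) from COC to IMZ and by 0.56 ± 0.06 (1.1e-06) from IVM to IMZ.

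Kif22 (ENSMUSG00000030677) was at 77.1, 103, 75.9 and 103 RPKM in IVO, 105, 105, 89.8 and 107 in COC, and 97.3, 74.1, 104 and 99.7 in IVM. In zygotes it was at 55.5, 73.7, 63.3 and 59.3 RPKM in IVZ and 57.5, 61.6, 61.5 and 54.0 in IMZ. The zygote libraries were again all below the oocyte libraries, by a narrow gap between IVZ 2 and the lowest IVM library. The fall was 0.50 ± 0.12 (adjusted p = 0.0038, limma) from IVO to IVZ, 0.78 ± 0.12 (3.2e-05) from COC to IMZ and 0.66 ± 0.12 (0.000197) from IVM to IMZ.

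Kif4 was at 63.6, 59.0, 69.9 and 63.3 RPKM in IVO and 41.4, 47.6, 48.9 and 40.8 in IVZ, with no overlap, a fall of 0.51 ± 0.07 (adjusted p = 1.57e-05, limma). From IVM to IMZ it fell by 0.40 ± 0.07 (0.000157), and from COC to IMZ no call was made. Kif9, a low message, went from 2.16, 2.38, 2.40 and 2.47 RPKM in IVO to 1.62, 1.77, 1.77 and 1.66 in IVZ, and fell by 0.31 ± 0.06 (0.00058), 0.43 ± 0.06 (1.19e-05) and 0.40 ± 0.06 (2.54e-05) in the 3 comparisons. On a log2(RPKM + 1) scale the change of such a low gene is understated.

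Some falls were called in both comparisons that end in IMZ. Kif11 was at 14.3, 14.4, 15.6 and 15.2 RPKM in IMZ, under all libraries of COC (17.7, 19.4, 20.8 and 19.9) and of IVM (21.2, 22.6, 18.4 and 19.3). It fell by 0.36 ± 0.07 (adjusted p = 0.000278, limma) and 0.43 ± 0.07 (4.43e-05). Kif20a fell by 0.24 ± 0.06 (0.00657) and 0.22 ± 0.06 (0.0102), and Kifc3, a minus-end motor of cell junctions, by 0.35 ± 0.09 in both. Kifc5b fell by 0.35, 0.31 and 0.35 from IVO, COC and IVM, with an SE of 0.10 each.

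The higher calls were cargo motors, other than Kif14. Kif5c was at 14.5, 16.8, 14.3 and 13.6 RPKM in IVO and 20.7, 17.6, 17.3 and 21.6 in IVZ, without overlap, a rise of 0.36 ± 0.10 (adjusted p = 0.0154, limma), with 0.32 ± 0.10 (0.0195) from IVM to IMZ. Kif3b was at 4.99, 5.80, 5.55 and 6.23 RPKM in IVO and at 6.64, 6.39, 7.10 and 7.09 in IVZ, again apart, a rise of 0.23 ± 0.08, with 0.35 ± 0.08 and 0.30 ± 0.08 to IMZ from COC and IVM. Kif1b rose by 0.33 ± 0.06 and 0.32 ± 0.06 to IMZ from COC and IVM, and Kif21b by 0.42 ± 0.11 and Kif14 by 0.18 ± 0.05 from COC. Kif24, which restrains cilium formation, fell by 0.19 ± 0.06 from IVO to IVZ and 0.18 ± 0.06 from IVM to IMZ.

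Of these calls, that of Kif24 from IVO to IVZ was lost in 12 of 20 fits with a library left out and from IVM to IMZ in 6. For Kif3b from IVO to IVZ it was lost in 5, without IVO 1, IVO 3, IVZ 1, IVZ 3 or IVZ 4, for Kif5c in 2, without IVZ 1 or IVZ 4, and from IVM to IMZ in 1, without IVM 2. Kifc5b lost its call in 3 of 20 fits from IVO to IVZ and in 3 from COC to IMZ. Without the 3 total RNA libraries that stand apart, 7 kinesins were called lower and 0 higher from IVO to IVZ, and Kif3b, Kif5c and Kif24 were not called, where 28.1% of all genes were. From COC to IMZ that fit called 9 lower and 6 higher (41.4% of all genes) and from IVM to IMZ 9 and 2 (40.7%), without Kif24 and Kif5c. With median-of-ratios scaling the counts were 6 lower and 4 higher, 6 and 6, and 7 and 6. The share of higher calls among all called genes went from 22.8 to 41.0%, 27.8 to 44.9% and 25.2 to 46.3%. How many of all genes were called under this scaling is not given here. Kif20a then lost both of its calls (adjusted p = 0.0969 from COC and 0.222 from IVM, limma), Kifc1 its call from IVM to IMZ (0.0988) and Kif24 both of its own (0.177 and 0.384), while Kif18a, at 0.21 and 0.22, gained calls from IVO to IVZ and from IVM to IMZ.

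**Figure D4:**
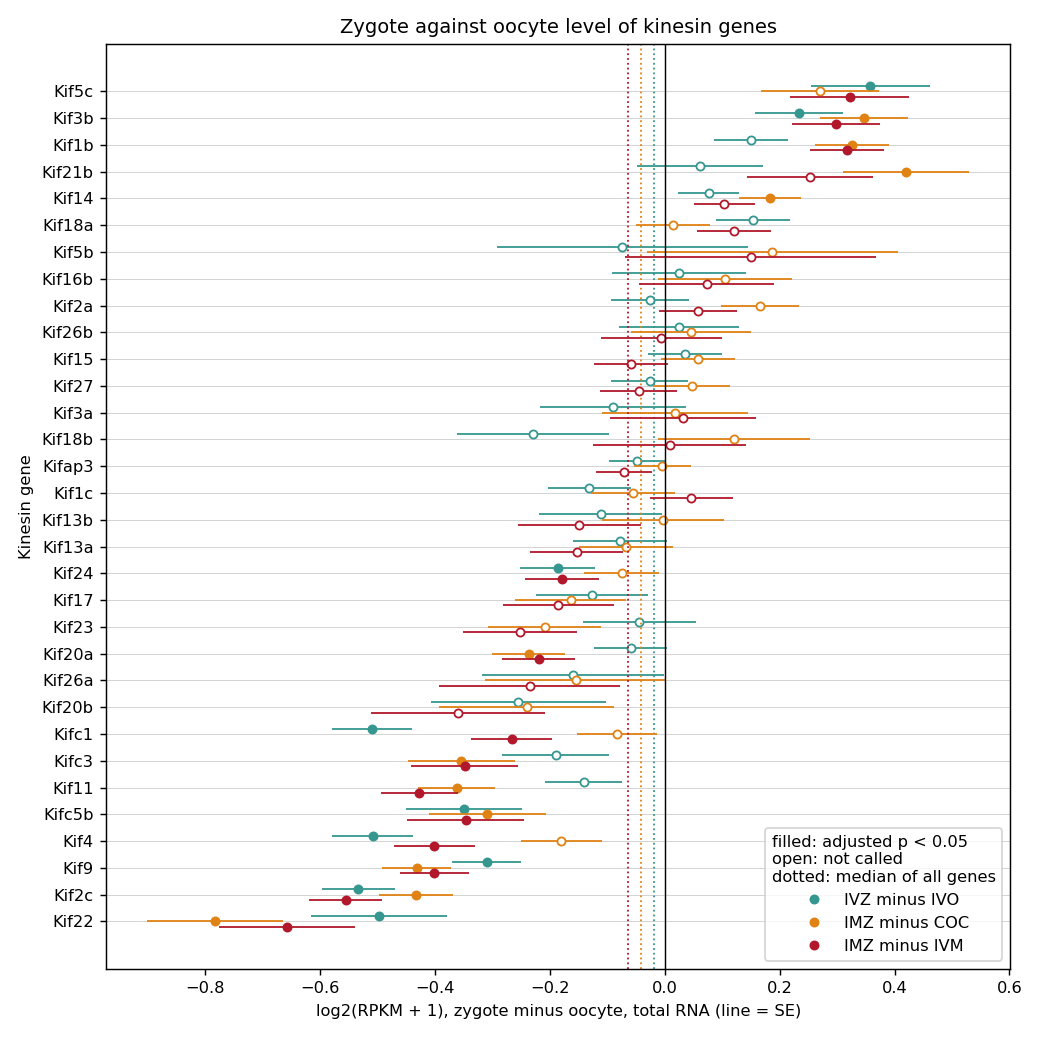
Difference between zygotes and oocytes in total RNA on the log2(RPKM + 1) scale for each of 32 kinesins in the 3 comparisons. Points are estimates, lines are 1 SE, filled points have an adjusted p under 0.05 and dotted lines are the medians of all genes. Kif22, Kif2c, Kif9 and Kif4 lie at the low end and Kif5c and Kif3b at the high end.

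On polysomes 0 of 18 kinesins were called between zygotes and oocytes in each of the 3 comparisons by limma, where 2.08%, 1.3% and 1.92% of all genes were called. At an unadjusted p under 0.05 there were 1, 3 and 2, against 17.5%, 14% and 13.2% of all genes. From IVO to IVZ the outermost differences were -0.98 ± 0.45 for Kifc3, -0.46 for Kif5b, 0.55 for Kif1b and 0.58 for Kif20b. Without polysomal IVZ 1, which the authors excluded, Kif5b was the lowest at -0.83 and Kifc3 was at -0.50. From COC to IMZ they were -0.93 for Kifc3, -0.89 ± 0.33 for Kif22, 0.44 for Kif24 and 0.48 for Kif23, and from IVM to IMZ -1.26 ± 0.55 for Kif20b, -1.01 for Kifc3, 0.17 for Kif3a and 0.18 for Kifc1. Without polysomal IVM 1, also excluded, Kifc3 was the lowest of these at -0.96, Kif20b was at -0.94 and Kif5b was the highest at 0.40. The SE of a kinesin difference was 0.29 to 0.55 on polysomes and 0.05 to 0.22 in total RNA, so changes of the size called in total RNA were not detectable there.

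Among partners in total RNA, the spindle list had 2 lower and 2 higher of 16 from IVO to IVZ, where 18.3% of all genes were lower and 5.4% higher. The checkpoint kinase-like protein Bub1b went from 707 ± 52.7 to 272 ± 40.9 RPKM, a fall of 1.38 ± 0.12, and Bub1 fell by 0.35 ± 0.06, while Nusap1 and Aurka rose by 0.30 ± 0.08 and 0.21 ± 0.06. Dynein and dynactin had 4 lower and 2 higher of 19, and adaptors 1 lower and 1 higher of 12: Rhot1 fell by 0.55 ± 0.07 and the light chain Klc2 rose by 0.30 ± 0.06. From COC to IMZ the lists had 2 lower and 2 higher, 3 and 3, and 2 and 1, against 24.4% and 9.42% of all genes, and from IVM to IMZ 5 and 1, 6 and 2, and 2 and 0, against 27.5% and 9.27%.

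In vitro and in vivo material was compared next, which is the question in the study's title. No kinesin passed the test between oocytes matured in vitro and in vivo, and in zygotes Kifc1, the spindle pole motor, alone did. In total RNA 0 of 33 kinesins were called between IVM and IVO, where 0.509% of all genes were called. Between COC and IVO 0 of 34 were called, against 0.00911% of all genes, and between IVM and COC 0 of 33, against 0.0448%. At an unadjusted p under 0.05 by limma the kinesins numbered 1, 2 and 2, against 10.9%, 7.08% and 5.65% of all genes. By the p-values of the authors' deposited table, adjusted here, they numbered 0, 0 and 0, against 0.946%, 0.255% and 0.305% of all genes.

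Kif20b was the lowest in both in vitro oocyte groups relative to IVO with all libraries kept. Its COC libraries at 26.6, 27.9, 33.5 and 24 RPKM overlapped those of IVO at 42.2, 33.3, 41.1 and 34.9 through 1 library of each, with a difference of -0.43 ± 0.11 (adjusted p = 0.627, limma). In IVM it differed by -0.31 ± 0.16 (0.528). Without IVO 1, IVO 3 and IVM 2 the IVM difference was -0.32 ± 0.07 (adjusted p = 0.044, limma), the 1 kinesin called there, where 5.11% of all genes were called. These libraries were picked from the same data, at one end of a within-group axis that Kif20b follows at the 95.0th percentile. Leaving them out narrows its spread, so this call cannot be taken as support for a difference. Without IVO 1 and IVO 3 the COC difference was -0.29 ± 0.12 (0.696) and Kif5b was the lowest at -0.42, 13 of 34 kinesins changed sign between COC and IVO, and 0 were called.

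The other outermost values between IVM and IVO were -0.30 ± 0.16 for Kif5b, 0.17 ± 0.12 for Kif13b and 0.18 ± 0.11 for Kifc5b. Between COC and IVO they were -0.33 ± 0.18 for Kif5b, 0.14 for Kifc5b and 0.19 ± 0.12 for Kif22. Kif4, Kif2c, Kif13a and Kif2a were lower in COC than in IVO with no overlap between libraries, where 2.15% of all genes were. Kif4 was at 57.5, 56.2, 56.1 and 57.4 RPKM in COC and at 59.0 or more in IVO. Between IVM and COC the outermost were 0.22 ± 0.07 for Kif4, 0.18 ± 0.07 for Kifc1, -0.13 for Kif22 and -0.11 for Kif18a. Without IVM 2, 6 of 33 kinesins changed sign there, and 0 were called.

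In zygotes 1 of 32 kinesins was called, and it was higher in IMZ. Of all genes 1.66% were called, 0.508% higher and 1.15% lower. Kifc1 was at 55.4, 48.5, 57.7 and 59.7 RPKM in IMZ and at 41.7, 42.8, 44.1 and 44.8 RPKM in IVZ, so that all 4 in vitro libraries were above the in vivo ones. The difference was 0.34 ± 0.07 (adjusted p = 0.0389, limma). It lost its call without IMZ 1 (0.0992), IMZ 3 (0.125), IVZ 1 (0.123), IVZ 3 (0.0746) or IVZ 4 (0.101), and its reads may be shared with Kifc5b. Without IMZ 4 the count was 3 kinesins, with 3.92% of all genes called, and without IVZ 2 it was 4, with 2.97%.

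Several kinesins came near the threshold. Kif20a was at 29.4, 34.7, 31.4 and 33.5 RPKM in IMZ and 43.0, 36.9, 39.9 and 41.0 in IVZ, with no overlap, a difference of -0.31 ± 0.07 (adjusted p = 0.059, limma). Kif23 was at 181, 190, 180 and 211 RPKM in IMZ and 246, 215, 249 and 246 in IVZ, again apart, at -0.33 ± 0.08 (0.0661). Kif11 differed by -0.25 ± 0.06 (0.0759), Kif21b by 0.30 ± 0.09 (0.11) and Kif20b by -0.41 ± 0.13 (0.132). Kif3b, Kif21b and Kifc1 were higher with no overlap and Kif20a, Kif23 and Kif11 lower, where 4.65% and 6.39% of all genes were. With the authors' deposited table of p-values, adjusted here over its genes, Kifc1 (0.00687), Kif20a (0.00842), Kif20b (0.0209) and Kif23 (0.0414) passed, against 3.96% of all genes.

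Kifc1 thus fell from IVO to IVZ by 0.51 ± 0.07 (adjusted p = 1.31e-05, limma) and from IVM to IMZ by 0.27 ± 0.07 (0.0052), and was not called from COC to IMZ. The difference between these changes was tested after the values had been seen. It was 0.43 ± 0.10 (0.0769) with COC as the start and 0.24 ± 0.10 (0.452) with IVM, and 0 of 32 kinesins were called in either test, against 0.328% and 0.0844% of all genes. At an unadjusted p under 0.05 by limma there were 4 and 2, against 9.72% and 8.87% of all genes.

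On polysomes 0 kinesins were called between in vitro and in vivo groups, of 18 for IVM and IVO, 26 for COC and IVO, 18 for IVM and COC and 25 for IMZ and IVZ, and 0% of all genes were called by limma in any of the 4. At an unadjusted p under 0.05 the kinesins numbered 0, 1, 1 and 1, against 2.98%, 5.23%, 4.44% and 5.68% of all genes, and the authors' deposited table, adjusted here, gave 0 kinesins in each, against 0.236%, 0.332%, 0% and 2.57% of all genes. Kif20b had the highest value in IVM against IVO at 1.07 ± 0.63 and against COC at 1.28 ± 0.57, with polysomal IVM libraries from 1.63 to 14.3 RPKM. IVM 1, the highest, is 1 of 2 polysomal libraries that the authors excluded, and Kif13b, a vesicle carrier, was highest in it too, with 0.93 ± 0.47 against IVO and 0.56 against COC. Without that library Kif13b was at 0.59 and 0.22, and Kif20b at 0.75 and 0.97.

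At the other end were Kif2a at -0.24 and Kif20a at -0.15 in IVM against IVO, and Kif17 at -0.50 ± 0.26 and Kif20a at -0.43 in IVM against COC. Without the excluded IVM 1, Kif5b was the lowest against IVO at -0.47, Kif2a was at -0.33 and Kif20a turned to 0.07. Against COC, Kif22 was then the lowest at -0.64 ± 0.25, with Kif17 at -0.41 and Kif20a at -0.21. In COC against IVO the outermost were 0.88 ± 0.40 for Kif1c, a vesicle motor, 0.78 ± 0.53 for Kifc5b, -0.69 ± 0.37 for Kif16b and -0.54 ± 0.41 for Kif5c. In zygotes Kif11 was at -0.95 ± 0.45 and Kif20b at -0.78 ± 0.44 in IMZ against IVZ, and Kif5b at 0.39 and Kif2a at 0.23. Without the excluded IVZ 1, Kif20a was the lowest at -0.81, Kif11 was at -0.66, Kif20b at -0.70 and Kif5b at 0.76, and Kif2a changed sign to -0.32. The SE of a kinesin was 0.25 to 0.63 in these comparisons, against 0.04 to 0.24 in total RNA.

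Whether the share on polysomes differed between in vitro and in vivo material was tested as an interaction of group and fraction over 16 libraries. It was called for 0 of 18 kinesins in IVM and IVO, 0 of 26 in COC and IVO and 0 of 25 in IMZ and IVZ, with 0% of all genes called by limma, and 1, 0 and 0 kinesins had an unadjusted p under 0.05, against 3.28%, 5.11% and 4.92% of all genes. The outermost were 1.37 ± 0.72 for Kif20b, 0.76 ± 0.51 for Kif13b, -0.23 for Kif2a and -0.05 for Kif4 in IVM and IVO, and without polysomal IVM 1 Kif20b was at 1.06 and Kif13b at 0.42. In COC and IVO they were 0.78 for Kif1c, 0.64 for Kifc5b, -0.66 for Kif16b and -0.54 for Kif5c, and in IMZ and IVZ -0.70 ± 0.43 for Kif11, -0.45 for Kif4, 0.46 for Kif5b and 0.36 for Kif23. Without polysomal IVZ 1 these were -0.41 for Kif11, 0.83 for Kif5b and -0.01 for Kif23, and Kif20a was the lowest at -0.50.

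Among partners in zygote total RNA the dynein adaptor Bicd2 was the 1 gene called: it was at 27.1 ± 0.942 RPKM in IMZ and 21.3 ± 0.581 in IVZ, a difference of 0.33 ± 0.06 (adjusted p = 0.0199, limma). The spindle partner Cenpe was at 54.9 ± 6 and 74.9 ± 13.3 RPKM and the kinesin light chain Klc1 at 7.30 ± 0.681 and 9.14 ± 0.741, neither called.

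Kinesins took unlike places on the axis along which total RNA libraries of a group differed. Within groups Kif20b, Kif3a and Kif23 followed it at the 95.0th, 94.1th and 90.3th percentile of 10660 genes, and Kif22 ran against it at the 5.64th. The libraries at its upper end, IVM 2, IVO 3 and IVO 1, held 42.2, 41.1 and 42.2 RPKM of Kif20b, the 3 highest of the 20, and 74.1, 75.9 and 77.1 RPKM of Kif22, the 3 lowest among oocytes. The median of 13 mitochondrial mRNAs on the log2 scale was 8.49, 8.04, 8.60 and 7.92 in IVO 1 to 4 and 7.77, 8.43, 7.63 and 7.83 in IVM 1 to 4. COC 3, the next library on the axis, had the lowest median of its group, 8.01, against 8.02 to 8.07 in the others. The part of mitochondrial RNA in the kinesin levels was not tested.

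**Figure D5:**
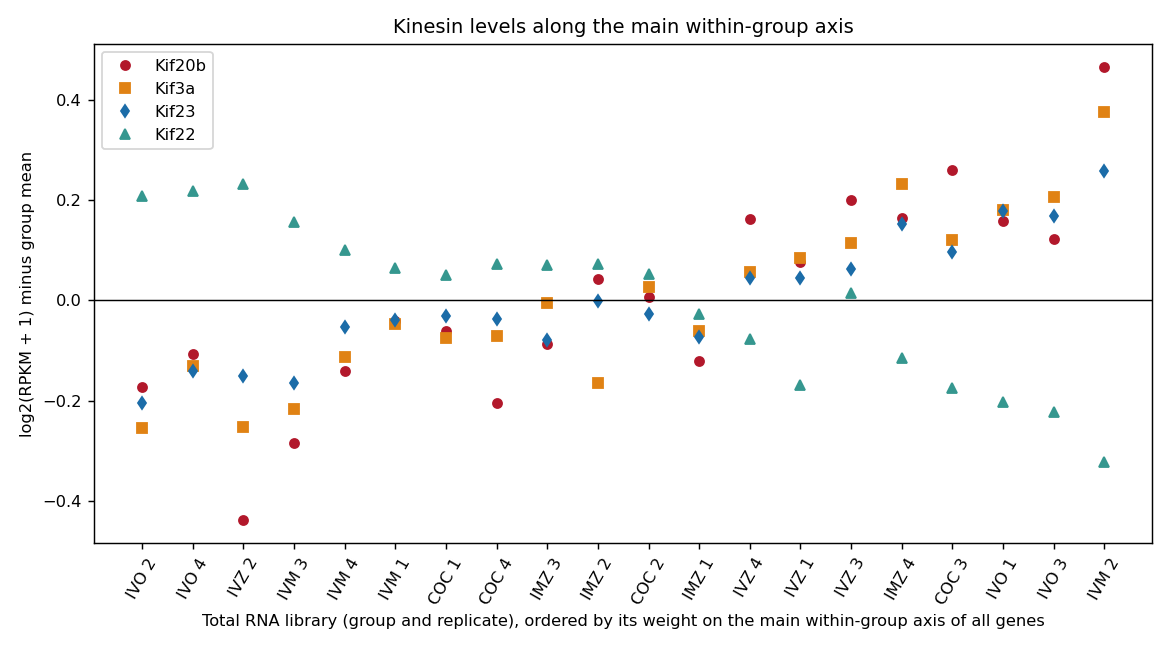
Deviation of Kif20b, Kif3a, Kif23 and Kif22 from their group mean, on the log2(RPKM + 1) scale, in the 20 total RNA libraries, which are ordered along the main axis of variation within groups. Points are single libraries. Kif20b, Kif3a and Kif23 run from low to high along the axis and Kif22 from high to low.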

How the data were processed

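Per the labels' protocols, a stranded SMARTer total RNA kit for picogram inputs was used for polysomal and total RNA alike. The submitters' processing notes name DRAGEN and the build GRCm39. The sources used here give no aligner settings, gene annotation, counting strand or statistical test of the authors. The authors deposited 8 tables that give, per the file headers, an RPKM value per gene and library, beside a log2 fold change and a p-value by the authors. No listed value is under 0.2 RPKM in a table's 8 libraries, and libraries that 2 tables share have the same RPKM in both. Per the file headers polysomal IVM 1 and IVZ 1 were excluded by the authors. They were kept here.

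Depth was recovered from the steps of low RPKM values with exonic lengths of GENCODE M21, an annotation of GRCm38 that was used for lengths and 3′ UTR sequence. Differences were fitted with limma 3.58.1 (R 4.3.3, two-sided, variance trend) on log2(RPKM + 1), with no block, and p-values were adjusted by Benjamini-Hochberg over all genes of the fit at a threshold of 0.05. The pseudocount makes differences of low genes look smaller. In vitro against in vivo fits used the 8 libraries of 1 table. Zygote against oocyte fits used 20 libraries, polysomal against total fits 8, and interactions 16. A count test was not used, since the values are RPKM. Scripts were tested on simulated data. In no comparison did every same-numbered pair of libraries deviate together (correlation over 0.1), so the numbers were not taken as pairs.

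The kinesins and the gene lists were chosen with earlier results of these data known. Named with values were the 8 highest and 3 lowest kinesins in IVO total RNA, called kinesins (the 8 with the smallest p where more were called), the 2 highest and 2 lowest in each comparison, and Kif11, Kif2c, Kifc1, Kif23, Kif20a, Kif18a, Kif22, Kif5b and Kif3a. Up to 4 partners per list were named, those with the smallest p. Kinesins named outside this rule were chosen after their values were seen. Alternatives were 0.1 as pseudocount, a minimum mean RPKM of 1, median-of-ratios scaling, a replicate block, the authors' deposited p-values, each library left out and, added after the data were seen, the length trend and the 3 libraries that stand apart.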

Additional observations from a re-analysis of the deposited data

Results flagged for a closer look

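Of 119 kinesin gene groups of 4 libraries examined, 6 held 1 library far from the other 3, and chance alone gives about 1 in 20. Of these, 3 were in COC replicate 3 of total RNA: Kif20a at 42.2 RPKM (others 36.6 to 37.4), Kif23 at 235 RPKM (others 214 to 216) and Kif22 at 89.8 RPKM (others 105 to 107). In IVZ replicate 2 of total RNA Kif23 was at 215 RPKM (others 246 to 249). In COC polysomal RNA Kif18a was at 4.99 RPKM in replicate 3 (others 0.948 to 1.32) and Kif3a at 12.7 RPKM in replicate 4 (others 8.92 to 9.51).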

How the results depend on the processing

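Counts of called kinesins moved by more than 1.5 times in few settings. Without the 3 total RNA libraries that stand apart, which were picked from these data, IVM against IVO had 1 call in place of 0. For IMZ against IVZ in total RNA, 1 call became 0 with a replicate block (Kifc1 adjusted p = 0.0696), 2 with the length trend removed and 4 with the authors' p-values, and 0 to 4 with a library left out. Polysomal against total RNA in IVZ went from 17 to 10 with the length trend removed. The added test of the change to zygotes from COC gave 0 to 1 with a library left out. The causes were not tested. With each library left out, calls ranged from 6 to 11 for IVZ against IVO in total RNA, 10 to 14 for IMZ against COC and 11 to 15 for IMZ against IVM. For polysomal against total RNA they ranged from 19 to 22 in IVO, 20 to 24 in COC, 10 to 15 in IVM, 12 to 17 in IVZ and 18 to 22 in IMZ. Kif21b in COC, polysomal against total, changed sign to 0.13 with the length trend removed. With the replicate block the numbers of called kinesins were 8, 12 and 12 for the 3 zygote against oocyte comparisons in total RNA, and 21, 21, 11, 17 and 20 for polysomal against total RNA in IVO, COC, IVM, IVZ and IMZ. For these ranges and block counts, the shares of all genes called are not given in this section. The shallowest library, a polysomal one, held 3.14 M reads, and what depth does to the calls was not tested.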
